A study of Mus musculus with 12 samples.

Results

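Anaplastic lymphoma kinase (Alk), its reported ligands midkine (Mdk) and pleiotrophin (Ptn), and the other receptor of these ligands, receptor-type protein tyrosine phosphatase zeta (Ptprz1), were followed across the cell types of the mouse superior mesenteric ganglion (SMG), the sympathetic ganglion in which Th-MYCN mice develop neuroblastoma. The 4 genes were chosen by symbol among the 32289 features counted, and each symbol matched 1 feature. Single-cell RNA sequencing of droplets was available for 12 mice of the 129+Ter/SvJcl strain. They were 1 wild type mouse of 3 weeks (WT_3W), 10 Th-MYCN+/- hemizygotes of 3 weeks (TG_3W) and 1 Th-MYCN+/- hemizygote of 6 weeks (TG_6W). The transgene is human MYCN driven by the rat tyrosine hydroxylase promoter, so it acts in catecholaminergic cells, and the SMG of the 6-week-old mouse was taken because it carried a visible tumor. Each library held the SMG of 1 mouse. WT_3W and TG_6W had 1 mouse each, so the spread between mice could not be estimated there and their intervals cover counting error only.

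ALK is a receptor tyrosine kinase of the developing sympathetic nervous system, and activating mutations and amplification of it occur in human neuroblastoma. Midkine and pleiotrophin are the 2 members of a small family of secreted, heparin-binding growth factors that bind proteoglycans, integrins, LRP1 and PTPRZ1, and they can raise ALK signaling. PTPRZ1 is a phosphatase with a chondroitin sulfate chain, known from glia and their precursors, and binding of pleiotrophin or midkine reduces its activity. ALKAL1 and ALKAL2 are the direct activating ligands of ALK and of its relative LTK.

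In the mm10 genome (GRCm38, GENCODE annotation), Alk lies on chromosome 17 from 71868972 to 72604627 on the minus strand. It overlaps 4 other annotated genes, 3 of them on its own strand, and none of the 4 was among the counted features. Mdk lies on chromosome 2 from 91929805 to 91932297 on the minus strand. Ptn and Ptprz1 share chromosome 6, Ptn from 36714929 to 36810220 on the minus strand and Ptprz1 from 22875502 to 23052916 on the plus strand. No annotated gene overlaps Mdk, Ptn or Ptprz1. The longest coding sequences are 4863 bases for Alk, 6936 for Ptprz1, 420 for Mdk and 504 for Ptn, so that 2 very long receptor transcripts and 2 short ligand transcripts were counted by their 3′ ends.

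Promoter sequence is shown for Ptn and Ptprz1, which were both highest in Schwann-like cells, and for Alk, which was highest in neuroblast-like cells. The sequences are taken from those that RefSeq gives before the annotated start in GRCm38.p6. They are chr6:36810221-36810429 on the minus strand for Ptn, chr6:22875252-22875501 on the plus strand for Ptprz1 and chr17:72604308-72604557 on the minus strand for Alk, each written in the direction of transcription. The RefSeq table used had no entry for Mdk. For Ptn the 41 bases nearest the RefSeq start lie inside the annotated gene and were left out.
Ptn: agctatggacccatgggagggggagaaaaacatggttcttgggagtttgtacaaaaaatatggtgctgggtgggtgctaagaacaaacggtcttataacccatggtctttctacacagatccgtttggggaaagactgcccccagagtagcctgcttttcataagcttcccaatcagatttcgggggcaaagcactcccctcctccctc
Ptprz1: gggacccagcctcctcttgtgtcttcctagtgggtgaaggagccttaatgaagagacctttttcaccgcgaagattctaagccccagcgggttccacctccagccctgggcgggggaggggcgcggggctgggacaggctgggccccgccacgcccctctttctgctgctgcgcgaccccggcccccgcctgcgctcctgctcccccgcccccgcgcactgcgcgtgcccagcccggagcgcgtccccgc
Alk: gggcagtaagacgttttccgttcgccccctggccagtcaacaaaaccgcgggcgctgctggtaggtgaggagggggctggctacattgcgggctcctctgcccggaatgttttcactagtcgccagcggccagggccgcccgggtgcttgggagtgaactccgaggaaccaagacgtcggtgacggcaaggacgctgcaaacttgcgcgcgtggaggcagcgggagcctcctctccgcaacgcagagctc
The Ptprz1 and Alk windows were GC-rich, at 71.6% and 65.2%, and the Ptn window held 49.8% G and C. The Alk window also lies inside the annotated Alk gene, which has 3 transcripts with 1 of them coding, and it was kept whole. No part is in capitals because neither motif searched was present. The E-box CACGTG, read on both strands, was in 6.02% of 32851 promoters, and the SOX core ACAAAG, read on both strands as ACAAAG or CTTTGT, was in 16.5%. Of the 3 windows, 0 held either motif.

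After droplets with free RNA only had been set aside, 12023 cells remained, with 618 in WT_3W, 522 to 1840 in TG_3W and 945 in TG_6W. The libraries held 1147772 UMIs (unique molecules counted) in WT_3W, 1444554 to 6388766 in TG_3W and 4824039 in TG_6W. Clusters were named from marker genes, with the 4 genes, their partners and the transgene left out of the clustering. This gave 3059 neuroblast-like, 2918 Schwann-like, 2700 ganglion-like, 141 fibroblast-like, 243 macrophage-like, 44 NKT-like, 165 myofibroblast-like and 517 endothelial-like cells. A further 2209 cells formed a low-depth cluster with a median of 491 UMIs per cell, and it was kept apart. By the naming rule it carried 3 of the 12 neuroblast markers. That rule asks for a UMI of the marker in at least 10% of cells, a share that follows depth. It also asks for 1.5 times the level of all other cells, neuroblast-like cells included. With log-normalized clustering, a cluster of 2099 cells (median 463 UMIs) carried 7 of the 12 and was named neuroblast-like. Neuroblast-like values under that clustering include it. At resolution 1.0 a cluster of 1188 cells (median 451.5 UMIs) also carried 7, and another of 1002 cells (median 556 UMIs) carried 0. Replicate 2 of TG_3W stood apart, since 1508 of its 1840 cells were ganglion-like, 50 were neuroblast-like, 9 were Schwann-like and only 38.8% of its UMIs were in cells. Across libraries, 93 cell barcodes occurred more than once, giving 95 pairs of cells that share a barcode, where 88.8 would be met by chance. The transgene H-MYCN stood at 317 ± 146 CPM (UMIs per 1000000 UMIs) in the neuroblast-like cells of TG_3W (SD, n = 10), at 3.23 ± 5.87 in Schwann-like and at 2.27 ± 2.96 in ganglion-like cells, and it had 0 UMIs in every class of WT_3W. In the low-depth cluster of TG_3W, H-MYCN stood at 228 ± 111 CPM (SD, n = 10). All 12 neuroblast markers had UMIs there and summed to a median of 14827 CPM. That sum was 17863 CPM in neuroblast-like and 3708 CPM in ganglion-like cells. The ganglion markers had a median sum of 3326 CPM in the low-depth cluster, up to 16448 CPM in replicate 4, beside 2253 CPM in neuroblast-like cells.

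Alk was a gene of the neuroblast-like cells. Of the 927 Alk UMIs in cells of all libraries, a mean of 78.9% in a TG_3W mouse came from neuroblast-like cells and 16.0% from the low-depth cluster. In neuroblast-like cells of TG_3W, Alk ranged from 28.0 to 84.0 CPM with a median of 43.5 (mean 48.6 ± 18.2, SD, n = 10). The lowest value, in replicate 2, rested on 1 UMI in 50 cells, and the other 9 libraries held 27 to 161 Alk UMIs in these cells. Ganglion-like cells held 0 to 16.1 CPM with a median of 1.30, with 14 UMIs in 2479 cells, and 4 of 10 libraries had none. Schwann-like cells held 0 to 10.1 CPM with 5 UMIs in 2224 cells. The neuroblast-like cells stood above both in every mouse, and the ranges did not overlap. How many of all genes separate in this way was not counted, here or for the other genes below.

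The fold changes of Alk were estimated with the mouse as a block and without a filter on low counts, since Alk did not pass that filter in the joint fit. The log2 fold change was 4.23 against ganglion-like cells (SE 0.37, edgeR adjusted p = 9.2e-29) and 4.43 against Schwann-like cells (SE 0.43, adjusted p = 1.5e-23). In these fits 37.1% and 39.8% of all 20294 genes were called. Without replicate 2 the values were 4.31 and 4.44. Between ganglion-like and Schwann-like cells Alk did not pass the test, with a log2 difference of 0.20 (SE 0.70, adjusted p = 1) against 35.1% of genes called. That small difference turned negative under 4 alternatives. In TG_3W the fibroblast-like, endothelial-like and myofibroblast-like cells had 0 Alk UMIs in 88, 421 and 121 cells, and the macrophage-like cells had 1.

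Alk was sparse per cell. When every cell was thinned to 500 UMIs, 1.90% ± 1.29 of the neuroblast-like cells of TG_3W held an Alk UMI (mean of mice, SD, n = 10). In endothelial-like cells, which should lack Alk, the same share was 0 of 303 cells. Among ganglion-like cells it was 0 of 2043, and a single UMI was left among 1824 Schwann-like cells. Median depths before thinning were 4340.5 UMIs in neuroblast-like, 1146 in endothelial-like, 1150 in ganglion-like and 970.5 in Schwann-like cells, and without thinning the share in neuroblast-like cells read 18.4%. Free RNA, taken from barcodes with at most 100 UMIs, held Alk at 19.9 ± 13.3 CPM (SD, n = 10), lower than the mean of neuroblast-like cells and higher than that of the other named classes.

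**Figure D1:**
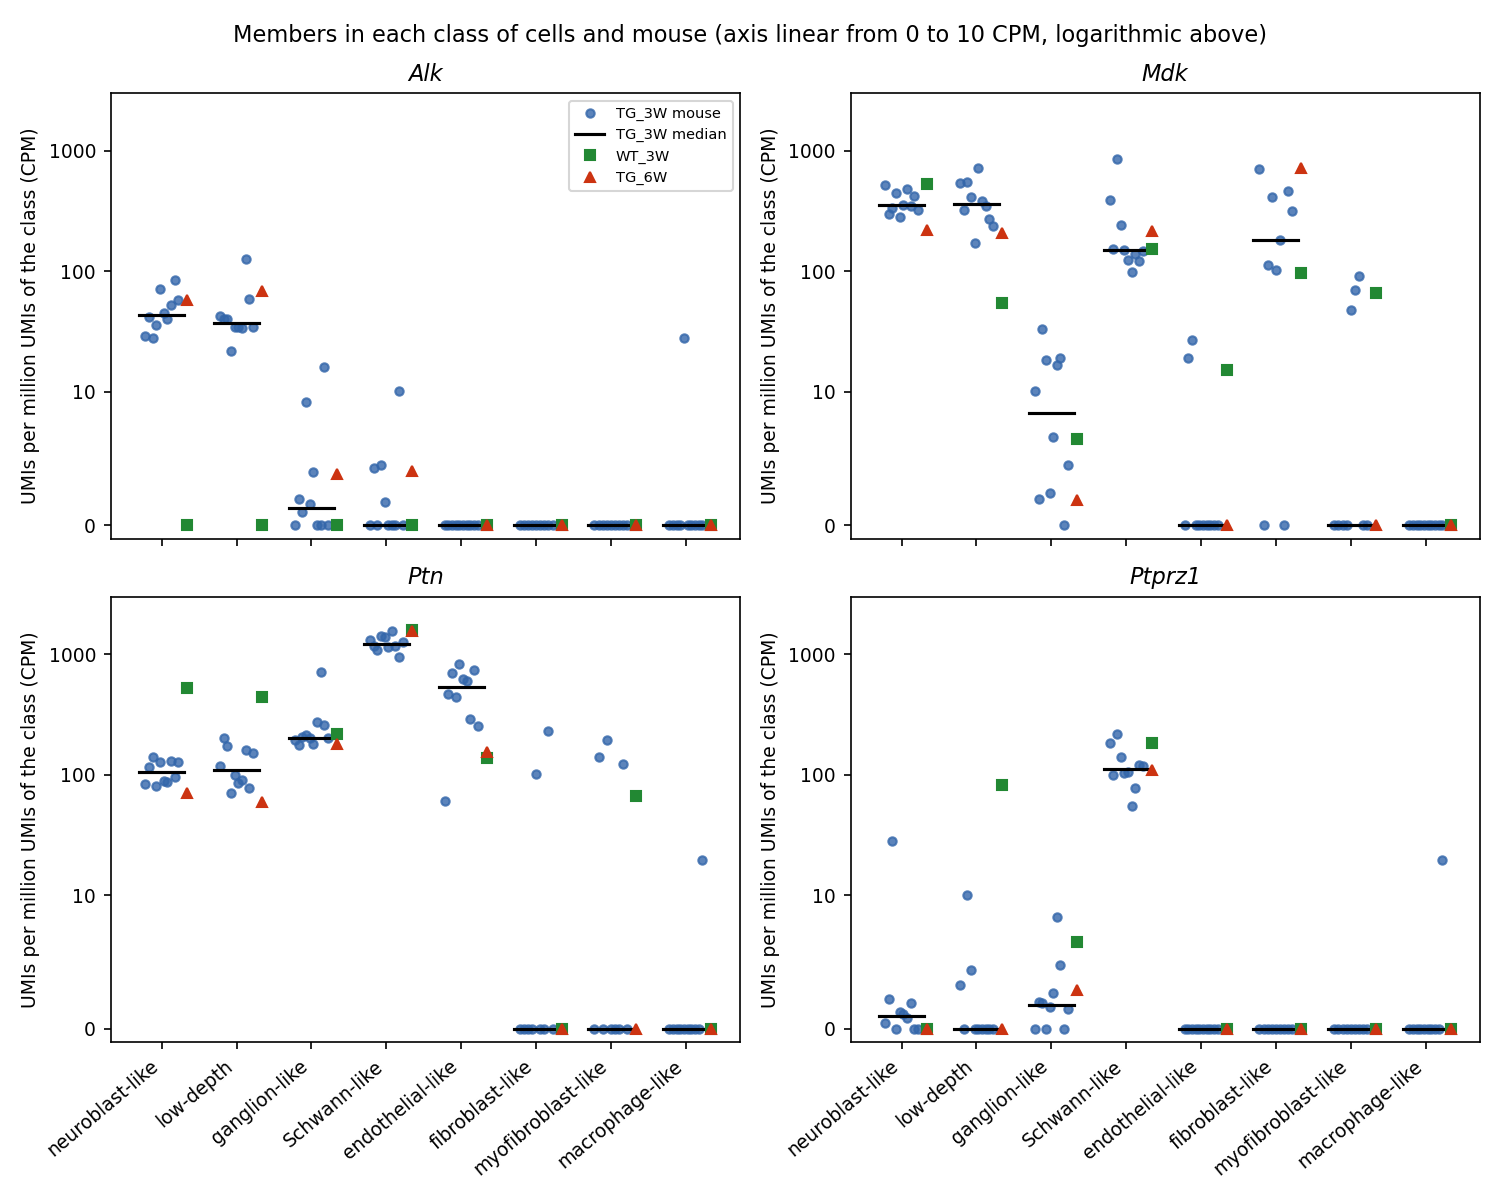
UMIs of each gene per 1000000 UMIs of a class in each mouse, on an axis that is linear up to 10 CPM and logarithmic above. Blue points are TG_3W mice with at least 5 cells of the class, black bars their median, green squares WT_3W and red triangles TG_6W; Alk sits at 28.0 to 84.0 CPM in neuroblast-like cells and Ptprz1 at 55.1 to 216 CPM in Schwann-like cells.

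Midkine was also high in neuroblast-like cells, but not there alone. In TG_3W neuroblast-like cells Mdk ranged from 282 to 521 CPM with a median of 354 (mean 383 ± 81.7, SD, n = 10). Schwann-like cells held 99.1 to 865 CPM with a median of 149, and the highest of them, replicate 2, rested on 4 UMIs in 9 cells, with 391 CPM the next value. Ganglion-like cells held 0 to 33.1 CPM with a median of 8.41. Mdk therefore separated neuroblast-like from ganglion-like cells in every mouse with no overlap, whereas the neuroblast-like and Schwann-like ranges overlapped and 9 of 10 mice had the higher value in neuroblast-like cells (p = 0.0215, two-sided exact permutation of signs).

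The log2 fold change of Mdk was 5.29 between neuroblast-like and ganglion-like cells (SE 0.30, adjusted p = 1.6e-23), where 70.1% of the 2485 genes past the low-count filter were called. Against Schwann-like cells it was 0.99 (SE 0.22, adjusted p = 5.9e-05), with 75.5% of genes called. Ganglion-like cells stood 4.29 below Schwann-like cells, a log2 fold change of -4.29 (SE 0.32, adjusted p = 5.3e-19) beside 68.9% of genes called. Without replicate 2 the values were 5.87, 1.21 and -4.66. In the order of mean levels, fibroblast-like cells came next to neuroblast-like cells at 256 ± 239 CPM (SD, n = 9), from 21 UMIs in 88 cells. The difference between those neighbours, 0.81 (SE 0.39, adjusted p = 0.0706), did not pass the test, nor did that between fibroblast-like and Schwann-like cells, 0.18 (SE 0.43, adjusted p = 0.807). In these 2 comparisons 56.3% and 28.5% of genes were called. The step from Schwann-like to myofibroblast-like cells, at 23.2 ± 36.5 CPM, did pass, with 2.51 (SE 0.65, adjusted p = 0.0013) against 33.6% of genes called. Macrophage-like cells held 0 Mdk UMIs in 216 cells.

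After thinning to 500 UMIs, 17.0% ± 2.82 of neuroblast-like cells and 9.58% ± 9.44 of Schwann-like cells held an Mdk UMI (SD, n = 10). The endothelial-like cells, a type with 3 Mdk UMIs in all 421 cells, had 0 of 303. In ganglion-like cells 1.04% ± 2.04 of the thinned cells held an Mdk UMI. The mean ganglion-like level was 11.3 CPM as counted and 0.649 CPM after free RNA was subtracted. Free RNA itself held Mdk at 213 ± 112 CPM.

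UMIs of receptor and ligand were also counted in the same cells. Among 2629 neuroblast-like cells of TG_3W thinned to 1000 UMIs, 45 held UMIs of both Alk and Mdk, 81 of Alk only, 772 of Mdk only and 1731 of neither. A cell with no UMI at this depth may still hold the transcript.

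Pleiotrophin was highest in Schwann-like cells, where every TG_3W mouse had 949.6 to 1575 CPM, with a median of 1216 (mean 1246 ± 184, SD, n = 10). Ganglion-like cells held 177 to 719.9 CPM with a median of 203, and neuroblast-like cells held 81.2 to 139.8 CPM with a median of 106. In all 10 mice the order was Schwann-like, then ganglion-like, then neuroblast-like, with no overlap between the 3 ranges. How many of all genes keep their classes apart in this way was not counted. The single high ganglion-like value was that of replicate 7, with 150 UMIs in 42 cells, and the next was 275. In that replicate the 13 Schwann markers summed to 1507 CPM in ganglion-like cells, within the range of 551 to 2508 over the 10 mice, and the part of Schwann RNA in the high value was not tested.

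The log2 fold change of Ptn was -1.31 between neuroblast-like and ganglion-like cells (SE 0.20, adjusted p = 5.3e-08), -3.68 between neuroblast-like and Schwann-like cells (SE 0.21, adjusted p = 7.4e-26) and -2.37 between ganglion-like and Schwann-like cells (SE 0.21, adjusted p = 5.6e-17). Without replicate 7 the values were -1.08, -3.85 and -2.77. With all mice, 70.1%, 75.5% and 68.9% of the genes past the low-count filter were called in these comparisons. In TG_3W, endothelial-like cells were the second Ptn class, at 61.0 to 827 CPM with a median of 537. They stood below Schwann-like cells by 1.27 on the log2 scale (SE 0.21, adjusted p = 3.6e-07, 51.8% of genes called) and above ganglion-like cells by 1.10 (SE 0.22, adjusted p = 9.0e-06, 70.7% of genes called). Neuroblast-like cells stood above myofibroblast-like cells by 1.78 (SE 0.66, adjusted p = 0.0184, 56.3% of genes called), from 4 UMIs in the latter. After thinning, 41.4% ± 5.43 of Schwann-like, 17.9% ± 10.0 of endothelial-like, 10.8% ± 5.00 of ganglion-like and 4.08% ± 1.53 of neuroblast-like cells held a Ptn UMI, beside 0 of 175 macrophage-like cells. The macrophage-like cells had a median of 1006.5 UMIs before thinning. Free RNA held Ptn at 230 ± 93.5 CPM, above the level in neuroblast-like cells.

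Neuroblast-like cells, which were many and held more UMIs per cell at the median, gave 23.9% of the Ptn UMIs of a TG_3W mouse on average. This share ran from 1.06% to 53.7% over the mice. Schwann-like cells gave 43.4%, ganglion-like cells 23.4% and endothelial-like cells 5.40%. For Mdk the neuroblast-like cells gave 73.6% and the Schwann-like cells 6.95%. These shares describe the cells recovered in the droplets and change with the number of cells of each class in a library.

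Ptprz1 was a gene of the Schwann-like cells. They held it at 55.1 to 216 CPM with a median of 113 (mean 122 ± 47.6, SD, n = 10), from 262 UMIs in 2224 cells. The highest value, in replicate 2, rested on 1 UMI, and 9 of the 10 libraries had 5 or more. Neuroblast-like cells held 13 UMIs in 2774 cells, at 0 to 28.0 CPM with a median of 0.955, and that maximum was again 1 UMI in replicate 2. In the neuroblast-like cells of replicate 2 the Schwann markers summed to 5536 CPM, against a median of 245 over the 10 mice. Ganglion-like cells held 15 UMIs in 2479 cells, at 0 to 8.33 CPM. The Schwann-like range overlapped neither of these.

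The log2 fold change of Ptprz1 was -6.31 between neuroblast-like and Schwann-like cells (SE 0.33, adjusted p = 1.0e-77) and -5.44 between ganglion-like and Schwann-like cells (SE 0.37, adjusted p = 5.1e-46), both without the low-count filter. Without replicate 2 they were -6.43 and -5.46. With all mice, 39.8% and 35.1% of the 20294 genes were called in these comparisons. Neuroblast-like and ganglion-like cells differed by -0.87 (SE 0.48, adjusted p = 0.159, 37.1% of genes called), which did not pass the test. With cells clustered on log-normalized counts the value was -1.29 (adjusted p = 0.0144), which did. Endothelial-like, fibroblast-like and myofibroblast-like cells held 0 Ptprz1 UMIs. After thinning, 5.95% ± 4.51 of Schwann-like cells and 0 of 303 endothelial-like cells held a Ptprz1 UMI, and Schwann-like cells took 82.5% of the Ptprz1 UMIs of a TG_3W mouse on average.

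**Figure D2:**
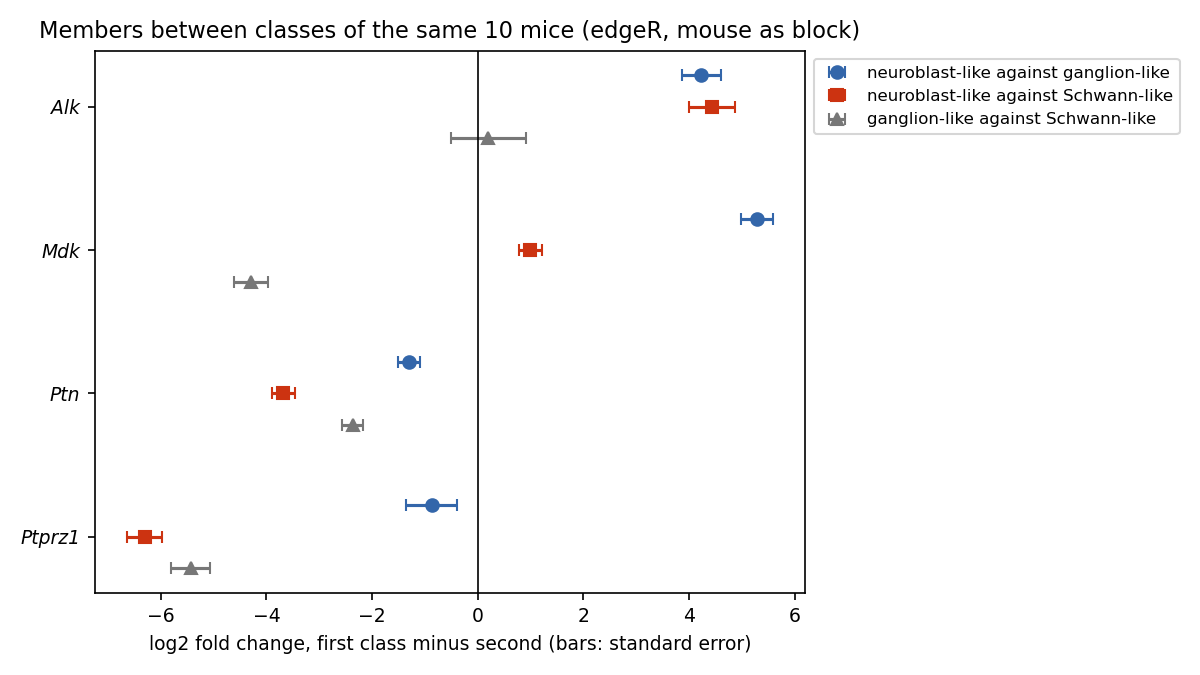
Log2 fold changes (x axis, first class minus second) of the 4 genes (y axis) between classes of cells in the same 10 TG_3W mice, with bars for the standard error. Alk and Mdk lie to the right in neuroblast-like against ganglion-like cells (4.23 and 5.29), and Ptn and Ptprz1 lie to the left in neuroblast-like against Schwann-like cells (-3.68 and -6.31).

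In the low-depth cluster Alk was 46.9 ± 29.7 CPM there, Mdk 396 ± 166, Ptn 123 ± 45.4 and Ptprz1 1.78 ± 3.34 (SD, n = 10). Flipping signs of the differences between low-depth and neuroblast-like cells of each mouse, an exact permutation test, gave a two-sided p = 0.605 for Alk, 0.828 for Mdk, 0.299 for Ptn and 0.453 for Ptprz1, where the smallest possible p is 0.00195. The mean difference of neuroblast-like from low-depth cells on the log2(CPM + 10) scale was 0.10 ± 0.60 for Alk, 0.04 ± 0.54 for Mdk, -0.12 ± 0.34 for Ptn and 0.10 ± 0.39 for Ptprz1 (SD, n = 10), and these spreads leave room for differences in either direction. This comparison was added after the data had been seen.

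The neuroblast-like cells themselves fell into 2 clusters. One was led by genes of mitosis such as Plk1, Aurkb and Ccnb1 (1699 cells, median 4950 UMIs). The other was led by Cartpt, a neuropeptide precursor, and Nhlh2, a neuronal transcription factor (1360 cells, median 3838.5 UMIs). Ptn was 143 ± 39.8 CPM in the mitotic and 55.2 ± 19.2 CPM in the Cartpt cluster, and it was lower in the Cartpt cluster in 10 of 10 mice. Alk went the other way, with 42.4 ± 14.5 and 59.6 ± 30.8 CPM, and was higher in the Cartpt cluster in 9 of 10 mice. The exception was replicate 2, with no Alk UMI in the Cartpt cluster. Alk was left out of the clustering, and was among the 10 genes with the highest fold in the Cartpt cluster against all other cells. Those cells were of every class, so this rank does not compare the 2 clusters. Mdk was at 387 ± 121 and 365 ± 90.0 CPM, and higher in the Cartpt cluster in 2 of 10 mice. H-MYCN was 285 ± 120 and 369 ± 211 CPM, higher in the Cartpt cluster in 7 of 10 mice. These are descriptions of clusters, with no test.

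**Figure D3:**
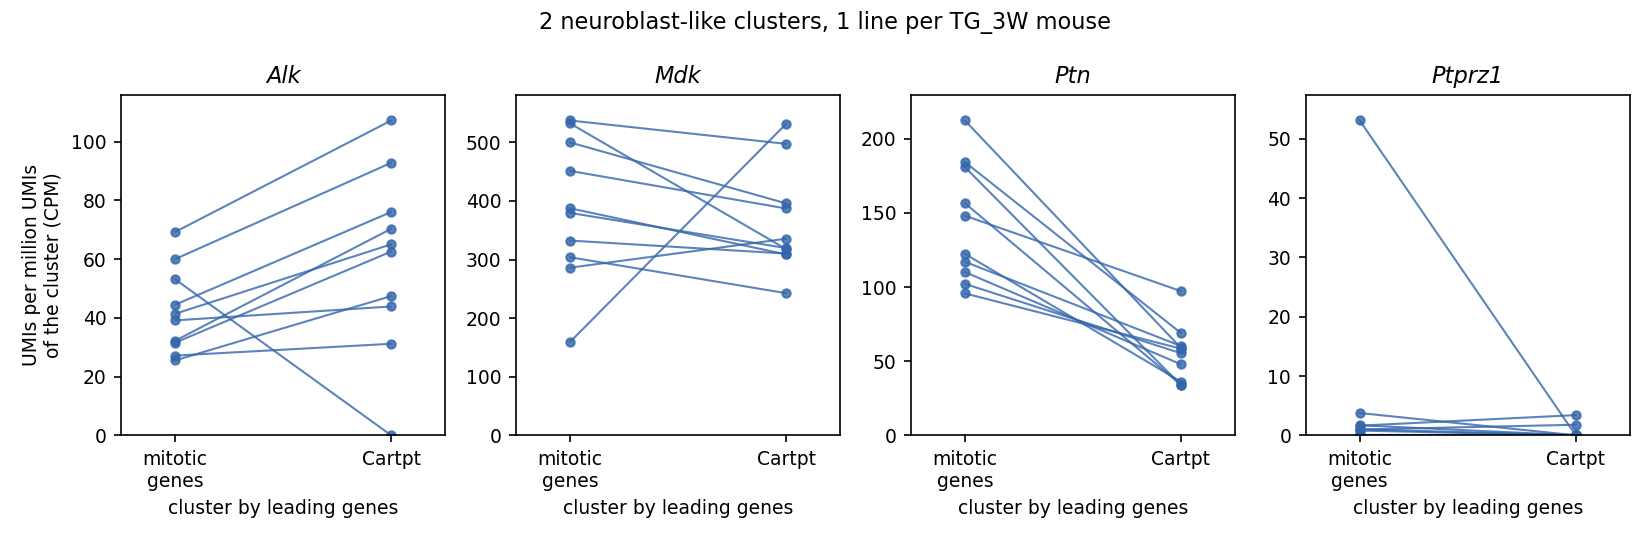
CPM (y axis, from 0) of each gene in the mitotic and the Cartpt cluster of neuroblast-like cells (x axis), with 1 line for each of 10 TG_3W mice. All 10 Ptn lines fall from left to right and 9 of 10 Alk lines rise.

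To ask whether the genes moved with cell division, neuroblast-like cells were thinned to 1000 UMIs and those with 3 or more UMIs of 54 G2 and M phase genes (2210 cells) were compared with those that had none (65 cells). Only 5 mice had at least 5 cells in both ranges. Mdk was 431 ± 80.3 CPM in cells with and 188 ± 91.3 CPM in cells without these UMIs (SD, n = 5), a log2 fold change of 1.48 (SE 0.28, edgeR adjusted p = 0.0014), where 4.92% of 5025 genes were called. The cells without held 38 Mdk UMIs in all. Alk (0.20, SE 0.53) and Ptn (0.63, SE 0.48) did not pass, and Ptprz1 had 7 and 0 UMIs. The ganglion markers summed to 7016 ± 11270 CPM in the cells without and to 2541 ± 2222 CPM in those with G2 and M phase UMIs, and their part in the Mdk difference was not tested. When the cells were instead split at the median of each mouse, in 9 mice, the Mdk difference was 0.24 (adjusted p = 0.172) and no longer called, whereas Ptn was higher in the upper range by 0.81 (adjusted p = 0.0051, 26.8% of genes called). Alk stood at -0.39 (adjusted p = 0.180). The split at the median was added after the data had been seen. The ganglion markers then summed to 764 ± 168 CPM above and 5078 ± 4947 CPM at or below the median (SD, n = 9).

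Across the 10 TG_3W mice, Alk in neuroblast-like cells was set against H-MYCN in the same cells, which ranged from 101 to 538 CPM. The correlation was r = 0.75 (permutation p = 0.0109, adjusted over 4 genes p = 0.0436), and Spearman's rho was 0.67 (permutation p = 0.0394, adjusted p = 0.158). Leaving out replicates 4 and 8, which lay farthest from the median of H-MYCN, gave r = 0.40 (exact permutation p = 0.327, n = 8). On this scale the size of r therefore depended on those 2 mice. Leaving them out also narrows the range of H-MYCN, and the values of r with and without them were not compared by a test. On the log2(CPM + 10) scale the 2 mice farthest from the median were replicates 2 and 10, and r was 0.66 with and 0.73 without them. In the 9 mice other than replicate 2, r was 0.70 with and 0.70 without replicates 4 and 10. Its adjusted p was 0.0524 to 0.150 under the 4 alternatives tried. Mdk (r = 0.12, rho = 0.01), Ptn (r = -0.15, rho = -0.07) and Ptprz1 (r = -0.46, rho = -0.53) had adjusted permutation p of 0.746, 0.746 and 0.479 for r. No batch was given by the labels. The ganglion markers in the same cells summed to 899 to 9280 CPM, highest in replicates 10 and 4.

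**Figure D4:**
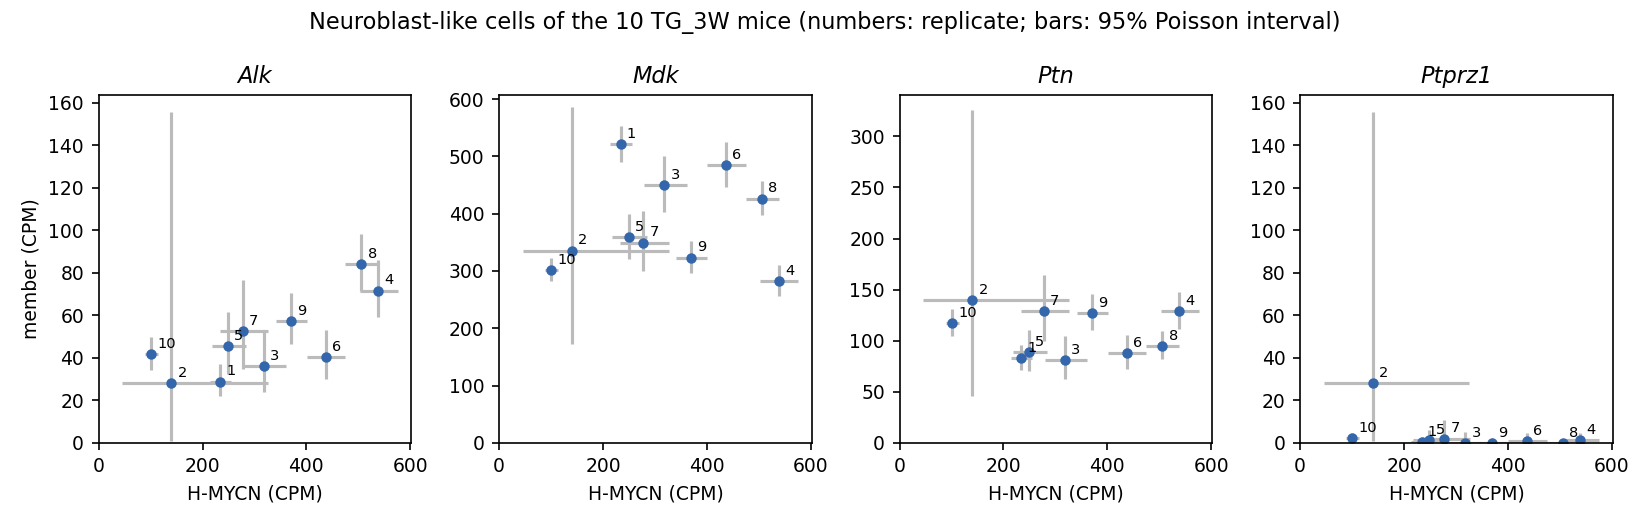
CPM of each gene (y axis) against CPM of H-MYCN (x axis) in neuroblast-like cells of each TG_3W mouse, numbered by replicate, with 95% Poisson intervals that cover counting error only. The 2 highest Alk values belong to replicates 8 and 4, which also have the highest H-MYCN.

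In the 6-week-old tumor-bearing SMG, the level of Alk in neuroblast-like cells lay among those of the 3-week-old mice, and the level of Mdk lay below them. Alk was 57.5 CPM (95% Poisson interval 48.0 to 68.3, 130 UMIs in 262 cells), inside the TG_3W range. Mdk was 221 CPM (202 to 241), below the lowest of the 10 TG_3W mice, 282 CPM. In 9 of 9 ways of choosing the cells it was below the lowest TG_3W mouse under the same choice. Ptn was 70.7 CPM (60.2 to 82.6) beside a lowest TG_3W value of 81.2, and lay below the TG_3W mice in 6 of the 9. Ptprz1 had 0 UMIs in these cells, which allows up to 1.33 CPM. H-MYCN was 360 CPM (336 to 386), inside the TG_3W range. Age cannot be told apart from the mouse and from the choice of a tumor-bearing ganglion, and with 1 mouse there was no test.

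Schwann-like cells of TG_6W held Ptn at 1555 CPM (1446 to 1669), Mdk at 216 CPM (177 to 261) and Ptprz1 at 110.0 CPM (82.7 to 144), each inside the TG_3W range, although Ptn lay above the highest TG_3W mouse in 4 of the 9 ways of choosing the cells. Ganglion-like cells held Ptn at 181 CPM (156 to 209) and Alk at 3.83 CPM from 4 UMIs. Neuroblast-like cells gave 90.9% of the Alk UMIs and 77.3% of the Mdk UMIs of this library, and Schwann-like cells gave 67.7% of its Ptn UMIs.

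In the wild type SMG no Alk UMI was seen in any cell. The Schwann-like cells (354) allowed up to 12.8 CPM of Alk and the ganglion-like cells (87) up to 9.69 CPM, by the limit of 3 counts, so that a level as in TG_3W ganglion-like cells would not have been detectable. The neuroblast-like class held only 23 wild type cells, with 0 Alk, 4 Mdk and 4 Ptn UMIs, and 0 Alk UMIs there allow up to 397 CPM, above every TG_3W value. Schwann-like cells of WT_3W held Ptn at 1591 CPM (1434 to 1761), Mdk at 153 CPM (107 to 212) and Ptprz1 at 183 CPM (132 to 246). The Ptn value lay above the highest TG_3W mouse, 1575 CPM, although its interval held that maximum. In 8 of 9 ways of choosing the cells it lay above the highest TG_3W mouse under the same choice. The Mdk and Ptprz1 values lay inside the TG_3W ranges. Ganglion-like cells of WT_3W held Ptn at 216 CPM (168 to 275), also inside the TG_3W range. After thinning to 500 UMIs, 1 of 45 endothelial-like and 6 of 58 ganglion-like cells of WT_3W held a Ptn UMI. In TG_6W these were 2 of 24 and 4 of 91. With few neuroblast-like cells, 75.0% of the Mdk UMIs of WT_3W came from Schwann-like cells, against a mean of 6.95% in TG_3W. No test was possible with 1 wild type mouse.

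The genes around this pathway were read from lists chosen by function. Few passed the low-count filter (9 of 33), so all were read in the fit without it, in which the median log2 fold change of all genes was -0.02, 0.19 and 0.08 in the 3 comparisons in the order used above. Of the direct ALK ligands, Alkal1 had no UMI in neuroblast-like, ganglion-like or Schwann-like cells of TG_3W, and Alkal2 had 1, 1 and 2 UMIs. Alkal2 was counted mainly in the stromal classes, with 7 UMIs in 121 myofibroblast-like cells (85.7 ± 103 CPM, SD, n = 9, at 0 in 4 mice) and 4 UMIs in 88 fibroblast-like cells (32.1 ± 66.5 CPM, SD, n = 9, at 0 in 7 mice). Alkal1 had 0 UMIs in those classes too. Ltk, the relative of ALK, had 17 UMIs in ganglion-like and 5, all in 1 mouse, in neuroblast-like cells and was lower in the latter by a log2 fold change of -2.09 (SE 0.69, adjusted p = 0.0088). Neither Alkal2 nor Ltk passed the test in the other comparisons.

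The other receptors of midkine and pleiotrophin differed by cell type. Of 13, 4 were higher and 6 lower in neuroblast-like than in ganglion-like cells (median -0.70), where 16.7% of all genes were higher and 20.3% lower. Against Schwann-like cells 3 were higher and 8 lower (median -2.06), beside 22.6% and 17.2% of all genes. Between ganglion-like and Schwann-like cells 2 were higher and 9 lower (median -1.30), beside 19.5% and 15.6% of all genes. Syndecan-1 (Sdc1), a heparan sulfate proteoglycan, was higher in neuroblast-like cells by 3.80 against ganglion-like (SE 0.38) and by 2.50 against Schwann-like cells (SE 0.37). Glypican-2 (Gpc2), a surface proteoglycan of neuroblastoma, was higher by 1.87 (SE 0.27) and 4.70 (SE 0.42), from a mean of 71.3 ± 17.0 CPM in neuroblast-like cells. Nucleolin (Ncl), a nucleolar protein that can bind midkine at the surface, was higher by 2.38 (SE 0.24) and 1.74 (SE 0.24). Ptprs, a phosphatase that binds the same glycan chains, was higher by 1.09 against ganglion-like cells (SE 0.25) and did not pass against Schwann-like cells. On the other side, syndecan-4 (Sdc4) was lower in neuroblast-like than in Schwann-like cells by a log2 fold change of -6.91 (SE 0.33), the integrin Itgav by -6.30 (SE 0.34), Itgb3 by -5.08 (SE 0.41), Itga6 by -3.61 (SE 0.30) and Lrp1 by -2.67 (SE 0.29). The neuropilin Nrp1 differed by -2.60 in neuroblast-like against ganglion-like cells (SE 0.27) and by 3.39 in ganglion-like against Schwann-like cells (SE 0.38). Its levels were higher still in endothelial-like cells, at 271 ± 113 CPM (SD, n = 10) beside 77.5 ± 26.9 CPM in ganglion-like cells. The adjusted p of these named differences was at most 6.9e-05, with Ptprs the largest, and each kept its sign and its call under both other scalings.

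Among ligands and substrates of PTPRZ1, tenascin-C (Tnc), an extracellular matrix protein, was in Schwann-like cells, at -7.46 in neuroblast-like against Schwann-like cells (SE 0.37, adjusted p = 2.9e-88). Contactin-1 (Cntn1) and tenascin-R (Tnr), 2 neuronal partners, were lower in neuroblast-like than in ganglion-like cells, by -2.80 (SE 0.25) and -2.18 (SE 0.36), and Cntn1 was higher than in Schwann-like cells by 2.81 (SE 0.46). The kinase Fyn was higher in neuroblast-like than in ganglion-like cells by 1.73 (SE 0.27, adjusted p = 2.4e-09). Of the 6 genes, 2 were higher and 4 lower in neuroblast-like than in ganglion-like cells (median -1.52), beside 16.7% and 20.3% of all genes. Against Schwann-like cells 3 were higher and 2 lower (median 0.24), beside 22.6% and 17.2% of all genes. The counts lose Ctnnb1 and Fyn in turn under another scaling.

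Adaptors carry the signal of active ALK to the ERK pathway, and a set of response genes follows that pathway. Of 5 adaptors, 0 were higher and 2 lower in neuroblast-like than in ganglion-like cells (median -0.65), and the 2 were Shc1 (-2.30, SE 0.25) and Ptpn11 (-1.11, SE 0.26). Against Schwann-like cells 1 was higher and 1 lower (median -0.21). The higher one was Grb2 (0.92, SE 0.26, adjusted p = 0.0017), whose call was lost with RLE scaling (0.43, adjusted p = 0.188), and the lower one was Irs1 (-2.14, SE 0.41). Of 6 response genes, 0 were higher in neuroblast-like cells than in ganglion-like or Schwann-like cells, 3 were lower than in ganglion-like cells (median -1.40) and 5 were lower than in Schwann-like cells (median -2.10). Dusp6, a phosphatase that ERK signaling induces and that limits it, was at 3.52 ± 2.56 CPM in neuroblast-like, 18.4 ± 12.9 CPM in ganglion-like and 166 ± 85.0 CPM in Schwann-like cells (SD, n = 10). Spry4, an inhibitor of receptor kinase signaling, fell by 3.67 on the log2 scale against ganglion-like cells (SE 0.34, adjusted p = 4.9e-25). Etv5, a transcription factor downstream of ERK, stood at -2.72 against ganglion-like cells (SE 0.32) and at -1.12 against Schwann-like cells (SE 0.42, adjusted p = 0.0211). These counts are to be read beside the shares of all genes called, given above.

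Over 68 sums of cells by class and mouse in TG_3W, the genes with the pattern most like each member were named, as a description without a test. The sums of a mouse share a library. For Alk these were Pnoc (r = 0.90), a neuropeptide precursor, Nfe2l3 (0.88) and Egln3 (0.88). For Mdk they were Mest (0.67), Dlk1 (0.67) and Nfe2l3 (0.66). For Ptn they were Rgcc (0.79), Prnp (0.77) and Fads1 (0.76). For Ptprz1 they included Sox10 (0.95), the glial transcription factor, and Plekhb1 (0.95). Dlk1 is also a marker by which a class was named.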

How the data were processed

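The deposited matrices held raw UMI counts per gene and barcode, which the authors made with Cell Ranger (3.0.2 in the file headers) from a Chromium 3′ library of each mouse, on mm10 with human MYCN added. From these counts, cells were called with an EmptyDrops procedure (barcodes over 100 UMIs, false discovery rate 0.01) and kept with at least 200 genes, at most 60% ribosomal and at most 10% mitochondrial UMIs. Cells were clustered with Seurat 5.3.0 (SCTransform, 2000 variable genes, 30 components, resolution 0.5), and clusters were named "X-like" from marker lists. Scrublet marked 0.358% of cells, and whether it found the doublets present was not tested. Doublets were not removed in the main fits. In simulated droplets of 150 to 400 UMIs drawn from cells of 1 library, 99% of Schwann-like but 13% of neuroblast-like droplets were called, so that shallow neuroblasts may be missing.

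Counts were summed per mouse and class (at least 5 cells), scaled to UMIs per 1000000 (CPM), and tested with edgeR 4.0.16 (quasi-likelihood, TMM, Benjamini-Hochberg over all genes tested, threshold 0.05) in 1 fit over all named classes of TG_3W. The mouse was a block, because the classes of 1 mouse come from the same animal and library. Deviations of the paired sums correlated at -0.0004 to 0.438, 0.053 to 0.329 and 0.083 to 0.308 in the 3 comparisons. Mdk and Ptn passed the low-count filter; Alk and Ptprz1 did not and were fitted without it. DESeq2 1.42.0 was an alternative. The edgeR script was tested on simulated data: for neuroblast-like against ganglion-like cells, 156 of 156 genes changed by 2 on the log2 scale and 80 of 149 changed by 1 were called. Intervals are exact (Poisson, Clopper-Pearson) and cover counting error only, and a count of 0 allows 3 counts. Named genes were the 4 members, H-MYCN, partner lists by function, markers and the 3 genes most correlated with each member. One of these genes is not reported here. The members and lists were chosen with earlier results of these data known.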

Additional observations from a re-analysis of the deposited data

Results flagged for a closer look

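Of 25 groups of TG_3W mice examined, 10 held a mouse whose level stood far from the others by Dixon's criterion. Its rate of about 1 group in 20 by chance holds for normally distributed values. It does not apply to sparse counts, where 1 UMI beside zeros can meet the criterion. Most of the 10 outlying values rested on 1 UMI. They were Alk at 10.1 CPM in the Schwann-like cells of replicate 8 and at 27.7 CPM in the macrophage-like cells of replicate 4, Ptn at 232 CPM in the fibroblast-like cells of replicate 8 and at 19.6 CPM in the macrophage-like cells of replicate 9, and Ptprz1 at 10.1 CPM in the low-depth cells of replicate 2, at 19.6 CPM in the macrophage-like cells of replicate 9 and at 28.0 CPM in the neuroblast-like cells of replicate 2.

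The remaining values rested on more UMIs. Ptn stood at 719.9 CPM in the ganglion-like cells of replicate 7, from 150 UMIs in 42 cells, with the next mouse at 275. Alk stood at 126.9 CPM in the low-depth cells of replicate 7, from 11 UMIs in 142 cells, with the next mouse at 59.4. Mdk stood at 865 CPM in the Schwann-like cells of replicate 2, from 4 UMIs in 9 cells, with the next mouse at 391.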

How the results depend on the processing

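Of the alternatives tried for the comparisons and levels reported, 590 left a result the same and 47 moved it. A further 12 reversed a sign, 2 made a result pass and 5 made it miss the threshold. For comparisons and correlations, the same meant an unchanged sign and call. For shares of cells it meant a mean within the SD over mice, and for single mice a level inside the Poisson interval. For numbers of genes called it meant staying within a set fold. The cause was not tested except where stated. Fits without the mouse as a block changed no call (Mdk 4.99 and Ptn -1.39 in neuroblast-like against ganglion-like cells), nor did the pairing change any other call. Ptprz1 in neuroblast-like against ganglion-like cells was -1.29 (adjusted p = 0.0144) with log-normalized clustering and 0.025 as a mean over mice (exact sign-flip p = 0.961). Alk in ganglion-like against Schwann-like cells was -0.056 with stricter cell filters, -0.045 with the members kept in the clustering, -0.94 after free RNA was subtracted, and -0.15 (without replicate 5) to 0.59 leaving out 1 mouse. Genes called, in the order neuroblast-like against ganglion-like, neuroblast-like against Schwann-like and ganglion-like against Schwann-like, numbered 7521, 8071 and 7130 without the low-count filter, 2875, 3118 and 2901 with at least 10 cells per sum, and 3079, 3310 and 3073 with stricter cell filters. In fits of only the classes compared, the first 2 numbered 4744 and 3809. Leaving out 1 mouse gave 1078 to 2233, 1162 to 2467 and 1042 to 2274, lowest without replicate 9 and next without replicate 6, where fewer genes were tested. With RLE scaling the calls in neuroblast-like against ganglion-like cells went from 665 higher and 1077 lower to 501 and 1339, and the median of all genes from -0.28 to -0.60. In neuroblast-like against Schwann-like cells they went from 1014 higher and 862 lower to 798 and 1044, and the median from 0.15 to -0.20.

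Between ranges of G2 and M phase UMIs, Alk was -0.0094 with at least 10 cells and -0.39 at the median split, and -0.15 (without replicate 8) to 0.55 leaving out 1 mouse. The median split gave 0.24 for Mdk (adjusted p = 0.172) and 0.81 for Ptn. Genes called were 459 without the filter, 132 with at least 10 cells, 1795 at the median split and 153 to 254 leaving out 1 mouse. Against H-MYCN, Alk had r = 0.66 on the log2 scale (adjusted p = 0.150), 0.74 in cells of at least 500 UMIs (adjusted p = 0.0524), 0.66 with log-normalized clustering (adjusted p = 0.142) and 0.70 without replicate 2 (adjusted p = 0.139, permutation tests). Mdk had r = -0.0063 in cells of at least 500 UMIs and -0.50 with log-normalized clustering, and Ptn had 0.072 in cells of at least 500 UMIs and 0.083 without replicate 2. In TG_6W, log-normalized clustering gave 79.5 CPM of Alk, 297 of Mdk and 40.9 of Ptn in neuroblast-like cells and 0 of Alk in Schwann-like cells, which was 0 also without high doublet scores, and Mdk in ganglion-like cells was 0 after free RNA was subtracted. Ptn in WT_3W Schwann-like cells was 1770.5 CPM in cells of at least 500 UMIs and 2041 with stricter cells. Shares of cells with a UMI follow depth by construction. Without thinning and at 1000 UMIs they were 18.4% and 4.03% for Alk, 60.2% and 30.7% for Mdk, 27.0% and 7.74% for Ptn and 0.629% and 0.0877% for Ptprz1 in the neuroblast-like class. The Schwann-like class had 0.231% and 0.393% for Alk, 57.4% and 67.8% for Ptn and 10.7% and 11.96% for Ptprz1. In ganglion-like cells they were 34.5% and 18.5% for Ptn, and without thinning 1.22% for Alk and 3.54% for Mdk.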
